A study of Mus musculus with 2 samples.

Results

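The genes described here are the Wnt ligands, their receptors and the intracellular effectors of the pathway, measured in single cells of mouse alveolar bone, which anchors the roots of the teeth. They were taken by symbol: every Wnt gene (Wnt followed by a number and at most an a or b), every Frizzled receptor (Fzd) and R-spondin (Rspo), the co-receptors Lrp5 and Lrp6, and the effectors Axin2, Lef1, Tcf7, Tcf7l1, Tcf7l2 and Ctnnb1. The rule found 41 genes among the 99819 features of the files: 19 ligands, 4 R-spondins, 10 Frizzleds, 2 co-receptors and 6 effectors. No measured value chose them.

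Wnt proteins are secreted, lipid-bearing ligands that mostly act on nearby cells. Where a Wnt protein brings a Frizzled together with Lrp5 or Lrp6, β-catenin (the product of Ctnnb1) escapes destruction, enters the nucleus and works with the TCF/LEF factors on target genes such as Axin2, and R-spondins prolong this by keeping Frizzleds at the cell surface. In bone this pathway is best known for driving bone formation by cells of the osteoblast lineage, and the same TCF/LEF factors serve in developing B and T lymphocytes.

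The study pulled the upper right first molar of C57BL/6J mice, aged 6 to 8 weeks, with a nickel-titanium coil spring at 25 g. Its control group carried the spring without force, and 12 mice were divided between both groups. On day 7 the molar was extracted, bone up to 1 mm from its socket was collected, and each group's 6 mice went into a single pool, so a library holds no separate animals. Neither of the 2 libraries is tied to a group by its labels. They are called library 1 and library 2, force was not compared with control, and no p-value could be given.

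Library 1 yielded 9285 cells and library 2 yielded 11262, with medians of 3294 and 4598 unique molecular identifiers (UMIs, each a counted RNA molecule) per cell. The cells formed 24 classes, named by marker genes and called "like" a type for that reason. Blood-lineage classes held 70.9% of the cells of library 1 and 64.4% of those of library 2, stromal and bone-forming classes 25.4% and 29.9%, and endothelial and Schwann cells 3.61% and 5.68%. Stromal cells comprised osteoblast-like, periodontal ligament or fibroblast-like and pericyte or smooth muscle-like (mural) classes and 3 clusters that stayed unnamed and are called here by their first leading gene. The Spp1 cluster (led by Spp1, Serpine2 and Mmp13) raised 6 of 8 osteocyte markers, with Dmp1 in 32.4% of its cells. The Apod cluster (led by Apod, Cxcl12 and Igfbp5) raised 7 of 8 marrow adipo-stroma markers, with Adipoq, the first of them, in 4.60% of its cells. The Igfbp6 cluster (its leading genes include Igfbp6 and Igfbp3) raised 6 of 7 chondrocyte markers, with Col2a1 in 3.08% of its cells. It had 26 cells in library 1 and 299 in library 2, so its values in library 1 are coarse. Cells of both libraries shared 67 barcodes.

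Levels are CPM, a gene's UMIs scaled to the total of its class and library, with exact Poisson 95% intervals in brackets, which cover counting error only. Values are given for library 1 and then library 2. A gene was called measured where each library had a class with 20 or more of its UMIs, which held for 26 of the 41 genes and for 13817 genes in all. Free RNA was read from barcodes with fewer than 100 UMIs, called low-UMI barcodes below. Fewer transcripts per cell and fewer cells with the transcript cannot be told apart in these sums.

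Promoters were searched for the letters that TCF/LEF factors prefer, since Axin2 is the pathway's usual readout gene and the ligands are themselves possible targets. RefSeq windows of 300 bases, 250 before to 50 after a start site on build GRCm38.p6, were matched by symbol for 29 of the 41 genes (38 windows). The 8 letters CTTTGATC, on either strand, occurred in 0.938% of all 32851 windows and in 2 windows of these genes, 1 each for Wnt11 and Wnt5b. Both are printed below with the match in capitals, after the Axin2 window, which does not hold these letters. This is a description of sequence, and it shows neither binding nor its lack. The Axin2 window lies on the plus strand at chr11:108920099-108920398, that of Wnt11 on the plus strand at chr7:98834862-98835161, with the match in reverse orientation starting 52 bases before the start site. The Wnt5b window lies on the minus strand at chr6:119449337-119449636, with the match in forward orientation starting 71 bases before the start site. Wnt11 had 2 windows in all and Wnt5b 3, and only those printed hold the letters.
Axin2: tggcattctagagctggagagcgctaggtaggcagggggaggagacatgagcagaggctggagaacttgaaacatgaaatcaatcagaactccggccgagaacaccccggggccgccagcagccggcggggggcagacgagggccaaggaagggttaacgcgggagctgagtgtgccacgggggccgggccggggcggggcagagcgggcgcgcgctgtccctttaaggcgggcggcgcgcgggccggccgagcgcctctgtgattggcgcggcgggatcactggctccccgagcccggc
Wnt11: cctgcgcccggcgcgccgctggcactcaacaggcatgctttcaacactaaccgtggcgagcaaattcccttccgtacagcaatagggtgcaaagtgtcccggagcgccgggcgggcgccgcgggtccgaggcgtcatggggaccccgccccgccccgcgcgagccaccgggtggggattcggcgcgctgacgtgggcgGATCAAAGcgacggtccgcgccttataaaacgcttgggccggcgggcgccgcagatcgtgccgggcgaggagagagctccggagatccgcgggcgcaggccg
Wnt5b: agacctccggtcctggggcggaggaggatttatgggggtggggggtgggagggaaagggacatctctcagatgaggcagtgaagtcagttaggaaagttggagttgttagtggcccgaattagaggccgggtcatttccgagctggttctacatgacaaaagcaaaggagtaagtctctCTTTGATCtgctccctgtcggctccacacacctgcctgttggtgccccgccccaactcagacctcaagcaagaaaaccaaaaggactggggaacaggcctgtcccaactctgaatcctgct

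Stromal, endothelial and Schwann-like cells were the highest class of more Wnt genes than blood cells were. Of the 26, 15 peaked in a class that was common to both libraries (57.7%), against 52.9% of all genes measured. These 15 comprised 8 with a stromal or bone-forming class highest (30.8%, against 8.1% of all genes), 4 with endothelial or Schwann cells highest (15.4%, against 6.24%) and 3 with a blood-lineage class highest (11.5%, against 38.6%). Wnt1 and Wnt4, among the 8, reached 20 UMIs in stromal classes only, so their place was partly fixed by the measuring limit. The highest class lay beyond counting error of the next in both libraries for 7 (26.9%, against 22.1%), and at least 2-fold above every other class for 5 (19.2%, against 11.1%). Among the 7, a stromal class was highest for Fzd1 and Fzd8 only. Each of the 8 with a stromal class highest lost its place under some other setting. The shares for a common highest class and for counting error are near those of all genes. Some settings moved these counts by over 1.5-fold. The 8 became 5 with a mitochondrial share up to 5% and 13 when only classes with at least 100 cells were ranked. The 7 lay between 3 and 12 and the 5 fell to 3 with a UMI minimum of 2000. The share of all genes was taken in the main setting only, so these other counts have no such share beside them. The 5 were Lef1, Tcf7l2, Fzd3, Fzd4 and Fzd6, and none was a ligand.

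**Figure D1:**
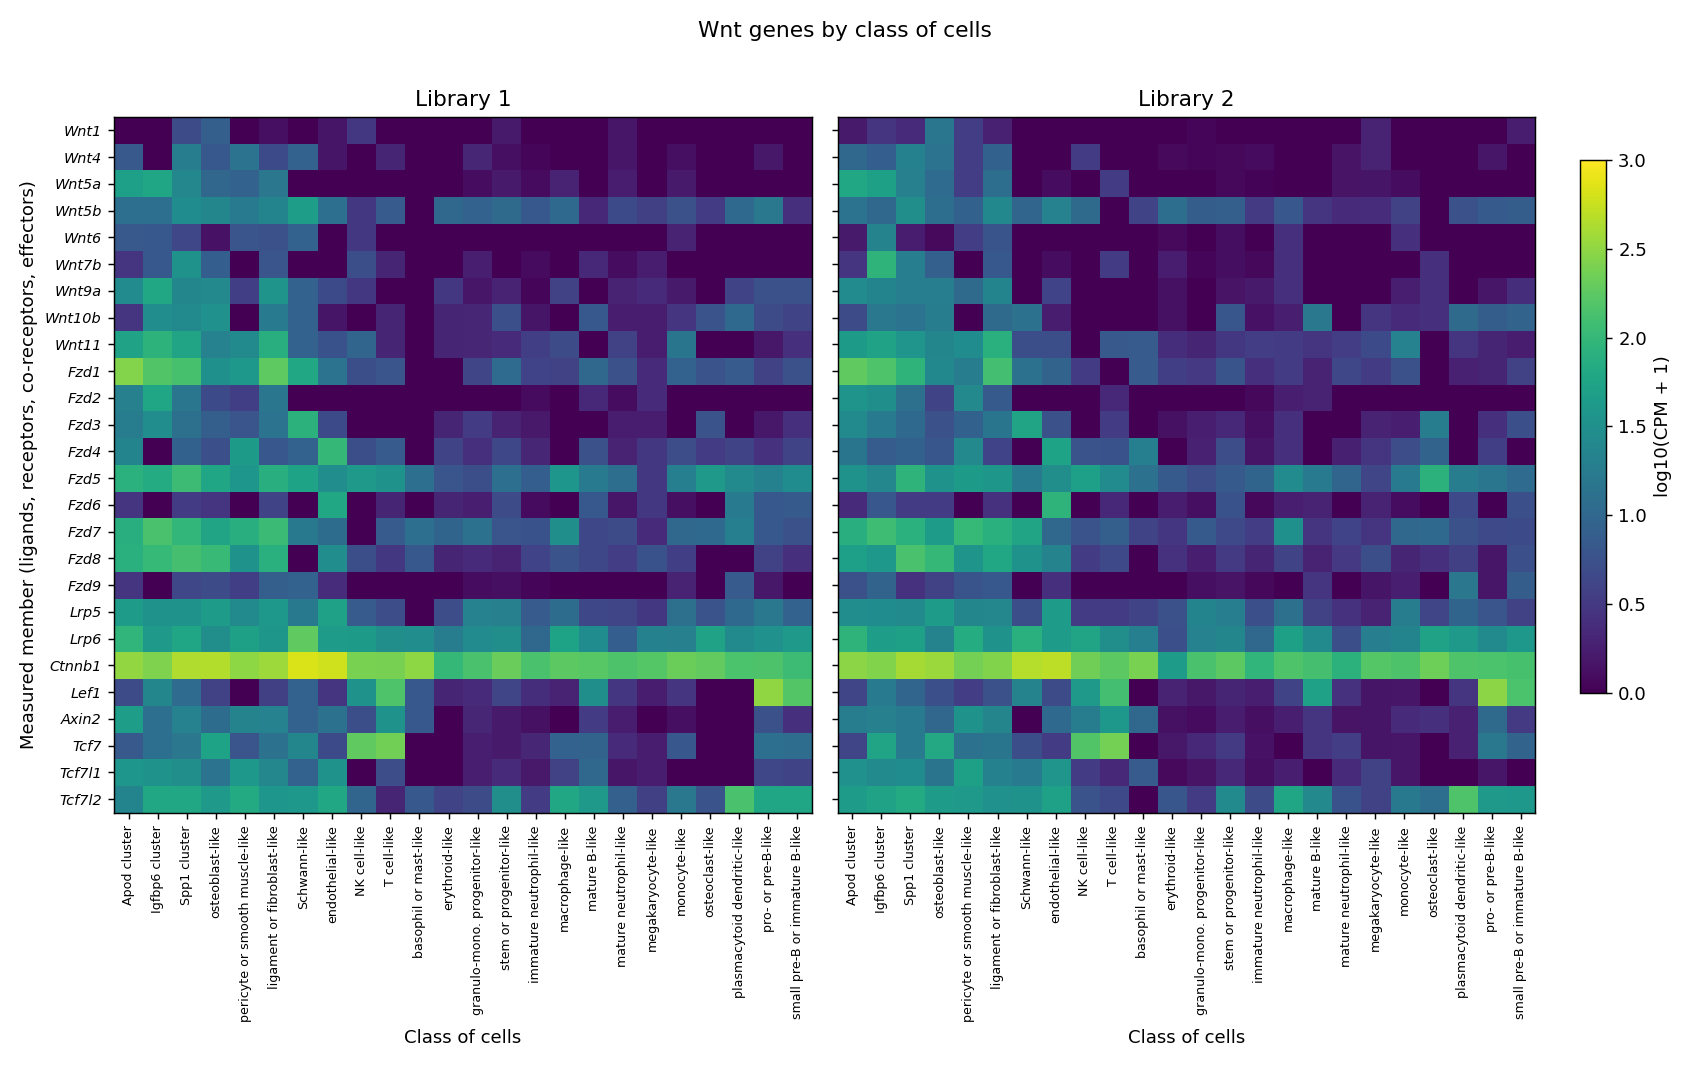
Level of each of the 26 measured Wnt genes (rows: ligands, receptors, co-receptors, effectors) in each of the 24 classes (columns, the stromal ones at the left), as log10(CPM + 1), with library 1 at the left and library 2 at the right. Ligands and most Frizzleds are bright in the stromal columns, Fzd4 and Fzd6 in the endothelial column, and Lef1 and Tcf7 in lymphoid columns.

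Of the 19 ligands, 9 were measured: Wnt1, Wnt4, Wnt5a, Wnt5b, Wnt6, Wnt7b, Wnt9a, Wnt10b and Wnt11. All 9 had a stromal class whose level lay above that of the low-UMI barcodes in both libraries. Wnt1, Wnt4, Wnt5a, Wnt6, Wnt7b and Wnt9a reached 20 UMIs in stromal classes only, so this was partly fixed by the measuring limit. The share of all genes with such a class was not taken. Only Wnt1, Wnt4 and Wnt10b had a common highest class, and for each the lead over the next class was within counting error in at least 1 library.

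Wnt1, a ligand known in people and mice to be needed for bone mass, was highest in osteoblast-like cells, at 7.20 CPM (5.38 to 9.44) in library 1 and 14.0 (11.1 to 17.6) in library 2, from 52 and 76 UMIs. The Spp1 cluster had 3.82 (1.65 to 7.54) and 1.35 (0.368 to 3.46), and the ligament or fibroblast-like class 0.341 and 0.876. Osteoblast-like cells were the only class in which Wnt1 exceeded the low-UMI barcodes in both libraries. They held 52 of the 68 Wnt1 UMIs of all cells in library 1 and 76 of 99 in library 2. The place turned with cells assigned by marker lists (log2 ratio to the highest other class -3.15) and with a mitochondrial share up to 5% (-0.43).

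Wnt10b, a canonical ligand that favours osteoblasts over adipocytes, was also highest in osteoblast-like cells, at 32.0 CPM (28.0 to 36.4) and 17.5 (14.2 to 21.4). The Igfbp6 cluster was close behind, at 28.4 (9.24 to 66.4) from 5 UMIs and 14.9 (10.2 to 21.0) from 32 UMIs. The Spp1 cluster had 25.8 and 12.8, and the ligament or fibroblast-like class had 15.7 and 9.93. For Wnt4 the Spp1 cluster led, with 17.2 CPM (12.1 to 23.8) and 19.6 (14.9 to 25.4). Osteoblast-like cells had 5.68 (4.07 to 7.70) and 12.7 (9.91 to 16.1) CPM of Wnt4. The place of Wnt10b turned under 3 of 13 other settings and that of Wnt4 under 3 of 11.

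Wnt11, mostly known as a β-catenin-independent ligand, was carried by the ligament or fibroblast-like class at 74.1 CPM (67.3 to 81.4) and 79.3 (74.0 to 85.0). In library 1 the Igfbp6 cluster stood above it, at 85.3 (47.8 to 141) from 15 UMIs, and in library 2 below it, at 52.1 (42.9 to 62.7). Osteoblast-like cells had 20.5 and 22.7 CPM of Wnt11. Outside the stroma, monocyte-like cells had 13.5 (9.73 to 18.2) and 20.3 (16.1 to 25.3), near the 13.9 and 16.7 CPM of the low-UMI barcodes.

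Wnt5a, the best-known β-catenin-independent ligand, had its upper levels in both the Apod and the Igfbp6 clusters. The Apod cluster had 48.4 CPM (31.3 to 71.5) and 61.4 (49.7 to 75.0), and the Igfbp6 cluster 56.9 (27.3 to 105) and 49.8 (40.8 to 60.2). These intervals overlap, and the order turned between the libraries. The Spp1 cluster had 23.4 and 19.3 CPM, ligament or fibroblast-like cells 14.3 and 11.0, and osteoblast-like cells 8.72 and 10.3. Its paralog Wnt5b exceeded the low-UMI barcodes (11.0 and 8.81 CPM) in both libraries in 2 classes. These were the Spp1 cluster, at 27.7 CPM (21.1 to 35.8) and 29.4 (23.6 to 36.3), and ligament or fibroblast-like cells, at 21.5 and 24.0. Endothelial-like cells had 11.6 CPM of Wnt5b in library 1, near the level of these barcodes, and 20.5 in library 2. Schwann-like cells were its highest class in library 1, at 46.2 (17.0 to 101) from 6 UMIs, and had 8.44 in library 2.

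Wnt7b, a ligand known to promote bone formation in mice, was placed differently by the libraries. The Spp1 cluster had 33.9 CPM (26.5 to 42.8) and 18.3 (13.7 to 23.8). The Igfbp6 cluster had 5.69 (0.144 to 31.7) from 1 UMI in library 1 and 88.5 (76.3 to 102) from 190 UMIs in library 2. Without that cluster, an alternative added after its unequal cell numbers were seen, the Spp1 cluster was the highest class of Wnt7b, with a log2 ratio to the next of 1.31 in the library where the lead was smaller. Wnt9a was highest in the Igfbp6 cluster in library 1, at 62.6 CPM (31.2 to 112) from 11 UMIs, and that cluster had 21.4 (15.7 to 28.6) in library 2. The level of Wnt9a was 34.5 (29.9 to 39.6) and 21.5 (18.8 to 24.5) CPM in ligament or fibroblast-like cells, 27.1 and 27.1 in the Apod cluster and 24.9 and 18.3 in osteoblast-like cells. Wnt6 was sparse, with 48 and 113 UMIs in all cells, and ligament or fibroblast-like cells were the only class above the low-UMI barcodes in both libraries, at 4.61 and 5.06 CPM. In library 2 the Igfbp6 cluster was the highest class of Wnt6, at 20.9 (15.3 to 28.0) from 45 UMIs, and in library 1 it had 1 UMI.

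The other 10 ligands did not reach the limit. Wnt10a had 46 UMIs in the cells of library 1 and 174 in those of library 2, Wnt2 17 and 41, Wnt2b 8 and 18, Wnt3a 1 and 6, Wnt9b 3 and 5, Wnt3 3 and 1, Wnt16 5 and 0, Wnt7a 1 and 1, and Wnt8a 1 and 0. Wnt8b had 0 UMIs in both. Of these, Wnt10a reached mature B-like cells, with 10.3 CPM (4.73 to 19.6) from 9 UMIs and 39.7 (28.8 to 53.5) from 43 UMIs. Wnt10a also stood above the low-UMI barcodes in both earlier B-lineage classes and in the Igfbp6 cluster, which had 11.4 CPM (1.38 to 41.1) from 2 UMIs and 25.6 (19.3 to 33.3) from 55 UMIs. Its highest class in library 1 was the Schwann-like one, at 53.9 (21.7 to 111) from 7 UMIs, which had 0 UMIs in library 2.

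None of the 4 R-spondins was measured. Rspo3 came nearest to a fixed place, with 31 and 59 UMIs in all cells. Its level in the Apod cluster was 31.0 CPM (17.7 to 50.3) from 16 UMIs and 15.5 (9.94 to 23.1) from 24 UMIs. The Spp1 cluster had 4.30 and 3.04, and ligament or fibroblast-like cells had 0.512 and 0.974. Rspo1, with 42 and 91 UMIs, exceeded the low-UMI barcodes in ligament or fibroblast-like cells alone, at 3.07 (1.82 to 4.85) and 6.04 (4.63 to 7.74) CPM. Rspo2 had 30 and 29 UMIs and Rspo4 had 0 and 3.

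Of 10 Frizzleds 9 were measured, and 7 had a common highest class, for 5 of them beyond counting error. It was a stromal class for Fzd1, Fzd5, Fzd7 and Fzd8, the endothelial-like class for Fzd4 and Fzd6, and the Schwann-like class for Fzd3. Fzd10 had 1 and 17 UMIs in all cells. Each Frizzled binds several Wnt proteins, and they differ in which they prefer.

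Fzd4, which also binds the non-Wnt ligand norrin in vessels, was highest in endothelial-like cells, at 98.1 CPM (85.4 to 112) and 53.7 (46.7 to 61.4), from 212 UMIs in each library. Mural cells were next, at 41.6 and 25.0 CPM from 16 and 10 UMIs. Ligament or fibroblast-like cells had 5.46 and 3.02 CPM. Fzd6, a receptor of planar cell polarity, was highest in the same class, at 62.5 (52.4 to 74.0) and 88.1 (79.1 to 97.9) CPM. The next class had 15.8 in library 1, where it was the plasmacytoid dendritic-like class with 5 UMIs, and 5.59 in library 2, where it was the Igfbp6 cluster. Fzd6 exceeded the low-UMI barcodes in endothelial-like cells and in no other class. In endothelial-like cells Fzd4 was higher and Fzd6 lower in library 1 than in library 2, and neither difference reached 2-fold.

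Fzd1, a receptor of β-catenin signalling, peaked in the Apod cluster, with 279 CPM (235 to 328) and 186 (165 to 209). The ligament or fibroblast-like class had 180 (169 to 191) and 127 (120 to 134), the Igfbp6 cluster 154 and 149, and the Spp1 cluster 132 and 88.9. Osteoblast-like cells were well below these, at 31.4 (27.5 to 35.8) and 23.8 (19.9 to 28.3). The place in the Apod cluster turned under some choices of processing, where its log2 ratio to the highest other class was -0.22, -0.14 and -0.14 (10% of cells removed as doublets, mitochondrial share up to 5%, and UMIs per cell without scaling).

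Fzd8 had another order. The Spp1 cluster was highest, at 129 CPM (114 to 145) and 138 (125 to 152), and osteoblast-like cells followed at 105 (97.9 to 113) and 98.8 (90.6 to 108). Ligament or fibroblast-like cells had 78.8 and 60.6. Fzd5 peaked there too, with 113 (99.3 to 129) and 88.6 (78.2 to 100), but in library 2 osteoclast-like cells lay close, at 82.8 (61.9 to 109) from 52 UMIs. The place of Fzd5 turned with UMIs per cell (log2 ratio -1.88), the mean CPM of each cell (-0.14) and a mitochondrial share up to 5% (-0.037). The lead of the Spp1 cluster for Fzd8 ended with UMIs per cell (log2 ratio -0.47) and without the 100 most abundant genes of each class (-0.037).

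Fzd7 was spread over all 6 stromal classes, each above the low-UMI barcodes in both libraries. The Igfbp6 cluster had 137 CPM (87.5 to 203) and 115 (102 to 131), and ligament or fibroblast-like cells 110 (101 to 119) and 78.7 (73.3 to 84.3). The place in the Igfbp6 cluster turned with the mean CPM of each cell (log2 ratio -0.12). The level of Fzd7 was 78.1 and 100.2 in mural cells and 55.7 and 42.8 in osteoblast-like cells. Endothelial-like cells had 10.6 and 9.37 CPM, below the 24.6 and 20.4 of the low-UMI barcodes. Fzd2 exceeded the low-UMI barcodes in 4 stromal classes, with 19.4 and 34.2 in the Apod cluster and 56.9 and 30.3 in the Igfbp6 cluster. Fzd3, a receptor of axon guidance and planar cell polarity, was highest in Schwann-like cells, at 84.7 (42.3 to 152) and 54.8 (29.2 to 93.8), from only 11 and 13 UMIs. This place turned with UMIs per cell (log2 ratio -0.73). Fzd9 had 92 and 152 UMIs in all cells and no common highest class.

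**Figure D2:**
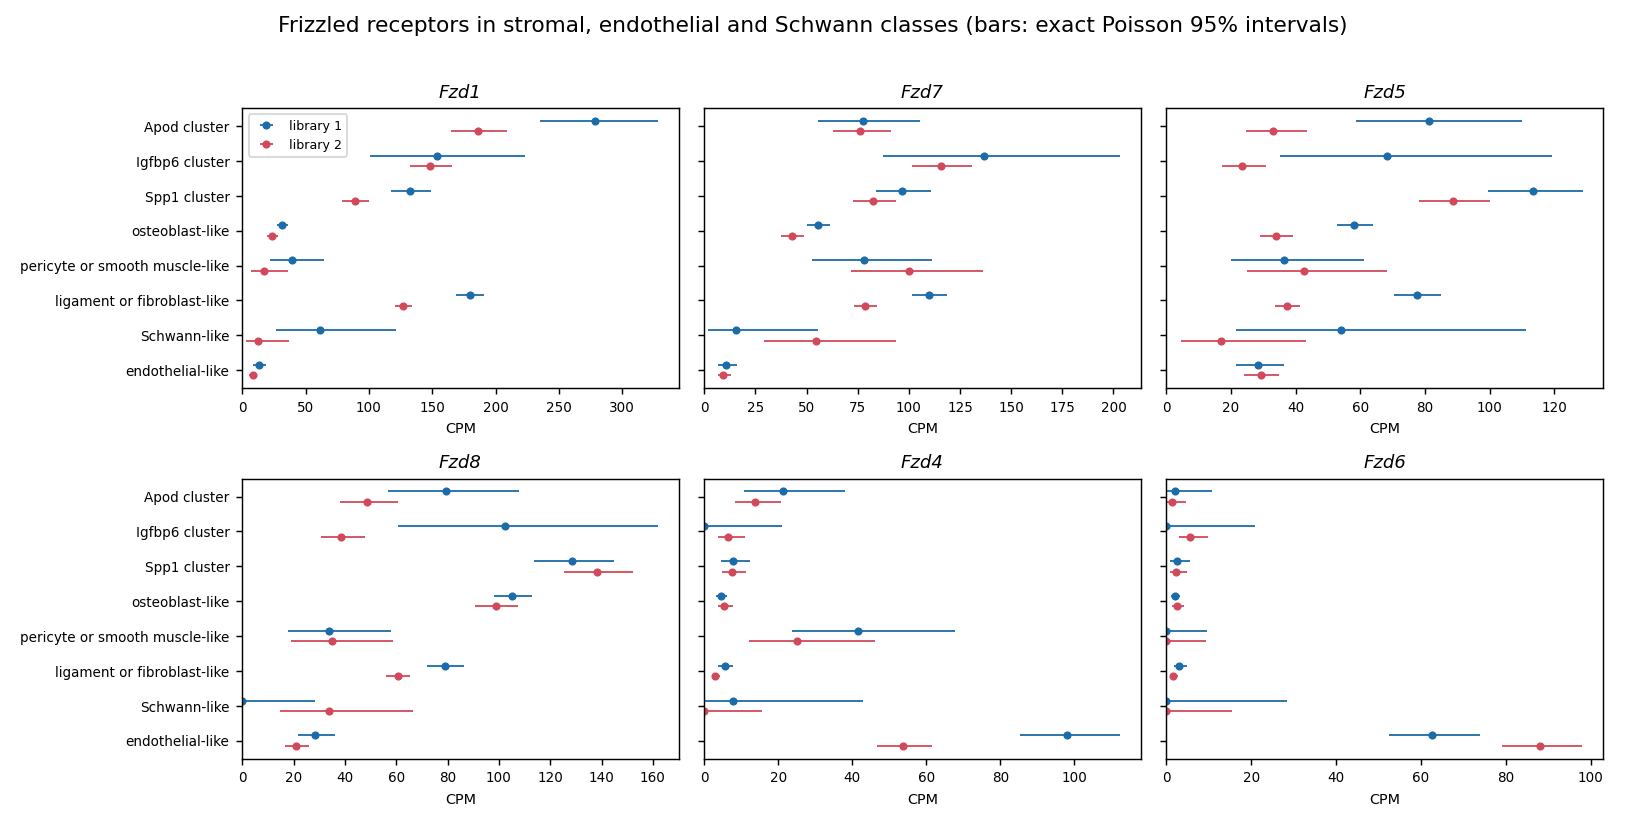
Level of 6 Frizzled receptors (CPM) in the stromal, endothelial and Schwann classes, with library 1 in blue, library 2 in red and exact Poisson 95% intervals as bars. Among stromal classes Fzd1 is low in osteoblast-like cells, at 31.4 and 23.8 CPM, Fzd8 is highest in the Spp1 cluster with osteoblast-like cells next, and Fzd4 and Fzd6 stand out in endothelial-like cells.

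The co-receptors were broad. Lrp5, whose human mutations change bone mass, was highest in endothelial-like cells, at 50.5 CPM (41.4 to 60.9) and 45.1 (38.7 to 52.2). Osteoblast-like cells had 45.0 (40.2 to 50.2) and 42.8 (37.5 to 48.7), so these classes did not differ beyond counting error, and the place turned under 5 of 13 settings. Ligament or fibroblast-like cells had 38.6 and 23.2. Lrp6 had its upper levels in Schwann-like cells, at 185 (118 to 275) and 80.1 (48.3 to 125), and in the Apod cluster, at 92.9 (68.5 to 123) and 88.5 (74.3 to 105). Macrophage-like cells had 53.9 and 50.1 CPM of Lrp6, and it exceeded the low-UMI barcodes in 8 of 24 classes, osteoclast-like cells among them.

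Of the nuclear effectors, Lef1, Tcf7 and Tcf7l2 were highest in blood-lineage classes, and Tcf7l1 was not. Lef1, a factor of early B and T lymphocytes, peaked in the pro- or pre-B-like class, at 318 CPM (292 to 346) and 301 (277 to 327). It stood at 155 (126 to 188) and 140 (121 to 161) in small pre-B or immature B-like cells. Mature B-like cells had 29.9 (19.5 to 43.8) and 50.8 (38.3 to 66.2). Along these 3 B-lineage classes the intervals of neighbours did not overlap, in either library. T cell-like cells had 148 (125 to 174) and 127 (104 to 153), which overlaps the small pre-B or immature B-like class. Lef1 is 1 of the 10 leading genes of the pro- or pre-B-like class, although it had no part in forming the clusters.

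Thinned to 1000 UMIs per cell, 28.9% (23.8 to 34.3, exact Clopper-Pearson interval) and 24.3% (19.6 to 29.4) of pro- or pre-B-like cells had a Lef1 UMI, and 59.4% and 55.7% did before thinning. In mature neutrophil-like cells, taken as background since Lef1 there did not exceed the low-UMI barcodes, the thinned share was 0.364% (0.134 to 0.791) and 0.249% (0.0301 to 0.896). Median depths were 4166.5 and 4834 UMIs in the pro- or pre-B-like class and 1987 and 2520 in mature neutrophil-like cells.

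Tcf7, which encodes the T cell factor TCF1, was highest in T cell-like cells, at 228 CPM (199 to 260) and 234 (203 to 269). NK cell-like cells had 183 (147 to 226) and 154 (118 to 197), and the lead of the T cell-like class in library 1 was within counting error. The class after these was not of blood. Osteoblast-like cells had 54.4 (49.2 to 60.1) and 64.4 (57.9 to 71.6) CPM of Tcf7, from 393 and 349 UMIs, more UMIs than in the T cell-like class (220 and 198). Ligament or fibroblast-like cells had 12.6 and 13.7, near the 14.4 and 11.8 of the low-UMI barcodes. The Igfbp6 cluster had 11.4 (1.38 to 41.1) in library 1, from 2 UMIs, and 55.9 (46.3 to 66.8) in library 2.

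Tcf7l2 was highest in plasmacytoid dendritic-like cells, at 136 CPM (98.3 to 183) and 148 (127 to 173). The next class was the mural one in library 1, at 67.7 (44.2 to 99.1), and the Spp1 cluster in library 2, at 68.0 (58.9 to 78.0). Macrophage-like cells had 61.5 and 58.8. Tcf7l1, the family's usual repressor, was highest in mural cells, at 39.0 (21.8 to 64.4) and 50.1 (30.6 to 77.4), within counting error of the Apod cluster (36.8 and 31.7) and endothelial-like cells (33.3 and 35.7). The lymphoid classes that carried Lef1 and Tcf7 had low Tcf7l1: T cell-like cells 4 and 1 UMIs, pro- or pre-B-like cells 6 and 1.

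**Figure D3:**
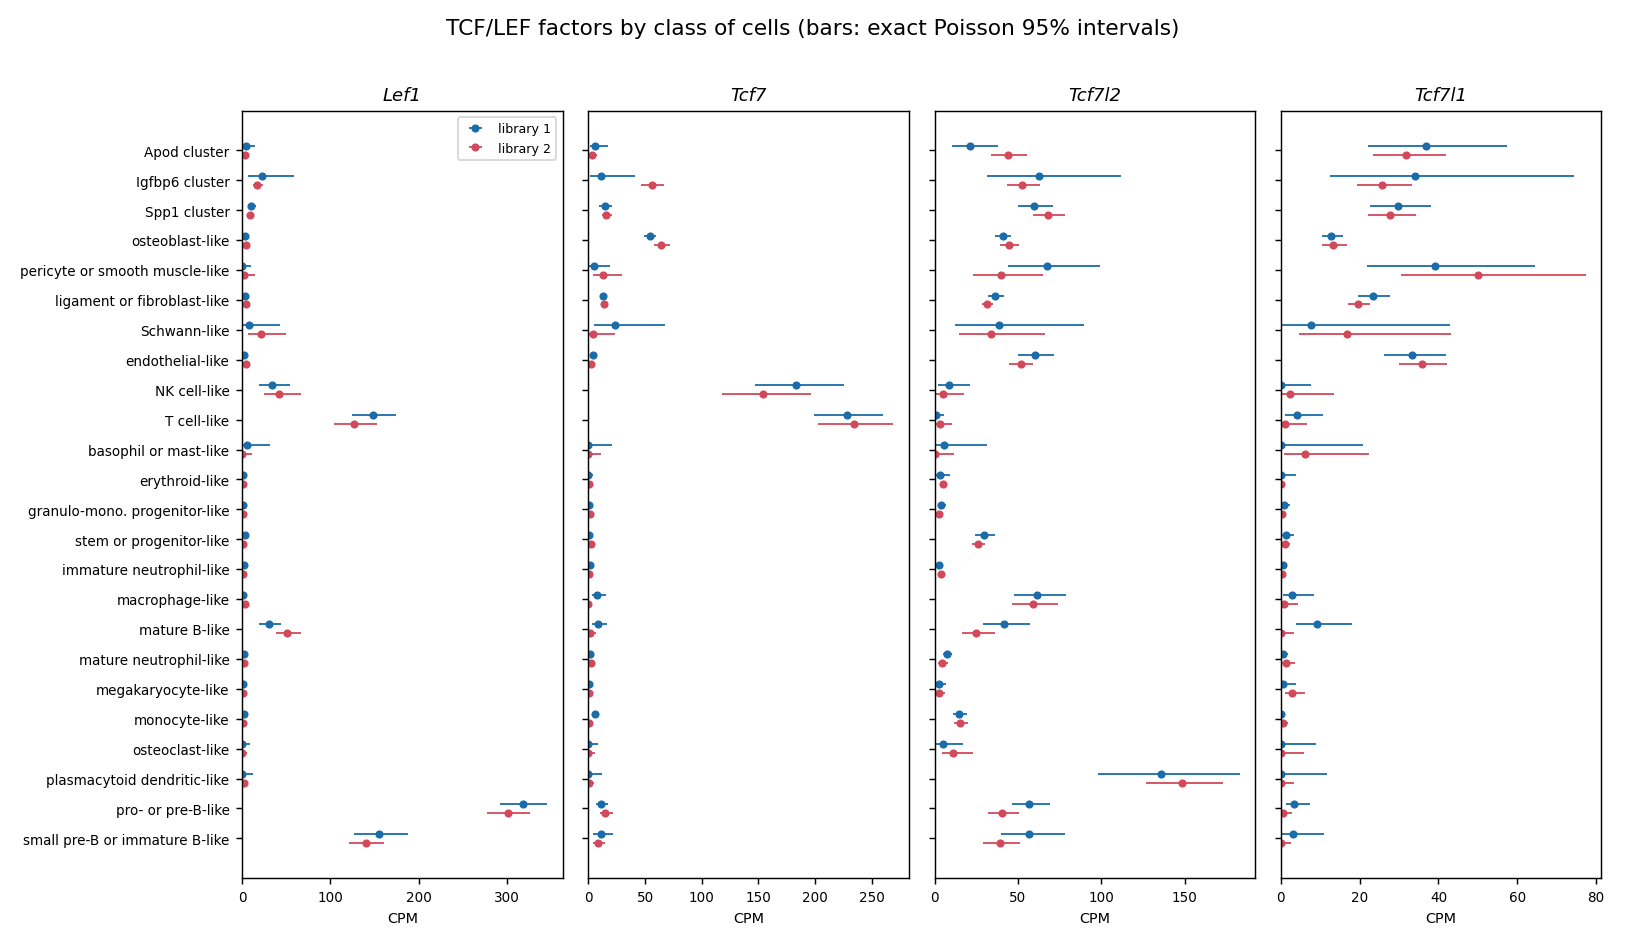
Level of the 4 TCF/LEF factors (CPM) in each of the 24 classes, with library 1 in blue, library 2 in red and exact Poisson 95% intervals as bars. Lef1 peaks at 318 and 301 CPM in the pro- or pre-B-like class, Tcf7 in T and NK cell-like cells with a smaller level in osteoblast-like cells, Tcf7l2 in plasmacytoid dendritic-like cells, and Tcf7l1 in stromal and endothelial classes.

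Ctnnb1, which also serves cell adhesion, was found in every class. It exceeded the low-UMI barcodes (256 and 194 CPM) in both libraries in only 6 of 24 classes. Its upper levels were 670 and 468 CPM in Schwann-like cells and 606 and 495 in endothelial-like cells, and the libraries differed in which was higher. Osteoblast-like cells had 450 and 352. Axin2, a target gene and a brake of the pathway, was sparse and spread, with 359 and 533 UMIs in all cells. T cell-like cells had 33.1 CPM (22.7 to 46.8) and 39.0 (26.9 to 54.8), ligament or fibroblast-like cells 20.3 (16.8 to 24.3) and 22.2 (19.4 to 25.3), and osteoblast-like cells 10.5 (8.29 to 13.2) and 8.68 (6.38 to 11.5). The Apod cluster had 46.5 (29.8 to 69.1) in library 1 and 17.4 (11.5 to 25.4) in library 2. It was the highest class of Axin2 in library 1, and T cell-like cells were in library 2. Mural cells were next in library 2, at 32.6 CPM from 13 UMIs. Axin2 exceeded the low-UMI barcodes in both libraries in 6 of 24 classes, the mural one among them.

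Clustering the stromal and bone-forming cells again gave 18 sub-clusters, and a small one led by Mfap4, Ostn and Gdf10 had the highest Axin2. It held 54 and 24 cells, 94.9% of them of the ligament or fibroblast-like class, and carried Tnn, a ligament marker, at 4675 and 7475 CPM. Axin2 stood there at 87.5 CPM (51.0 to 140) from 17 UMIs and 118 (64.4 to 198) from 14 UMIs. Among sub-clusters with at least 20 cells in the library ranked, its log2 ratio to the next, in the library where the lead was smaller, was 1.19 with a counting standard error of 0.57. A smaller one led by Apod, with 17 and 42 cells, had 57.7 and 20.0 CPM. With a stromal resolution of 2.0 the ratio was 1.12 with a standard error of 0.69, which no longer exceeds counting error. The same sub-cluster had Lrp6 at 129 and 177 CPM, Wnt11 at 160 and 126 and Fzd7 at 97.8 and 235, and neither its lead for Lrp6 nor that for Wnt11 lay beyond counting error in both libraries. For Lrp6 the next sub-cluster in library 2 was the one led by Apod, at 100.2 CPM (61.2 to 155), whose interval overlaps 109 to 270. It was singled out after its values were seen.

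Other ligands were concentrated in parts of the stroma. Wnt4 stood at 35.8 CPM (22.2 to 54.8) and 38.3 (27.2 to 52.3) in a sub-cluster led by Prss23, Nrgn and C4b, most of it from the Spp1 cluster. Wnt7b stood at 54.6 (42.6 to 68.8) and 29.8 (23.0 to 37.9) in the sub-cluster led by Spp1, also mostly from the Spp1 cluster, where Wnt4 was at 11.5 and 9.02. The genes next to Spp1 among those leading it were the haemoglobin genes Hba-a2, Hba-a1, Hbb-bs and Hbb-bt of red cells, and their part in these values was not tested. Wnt5a was at 63.3 and 62.5, and Fzd1 at 415 and 210, in a sub-cluster led by Col18a1, Scara5 and Dpt. Wnt9a reached 116 (60.2 to 203) and 93.4 (59.8 to 139) in a sub-cluster led by Malat1, whose cells were shallow (median 1624 and 2917 UMIs). Sub-clusters led by Ighm and by Ppbp carried B cell and megakaryocyte genes, and the part of doublets in them was not tested.

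**Figure D4:**
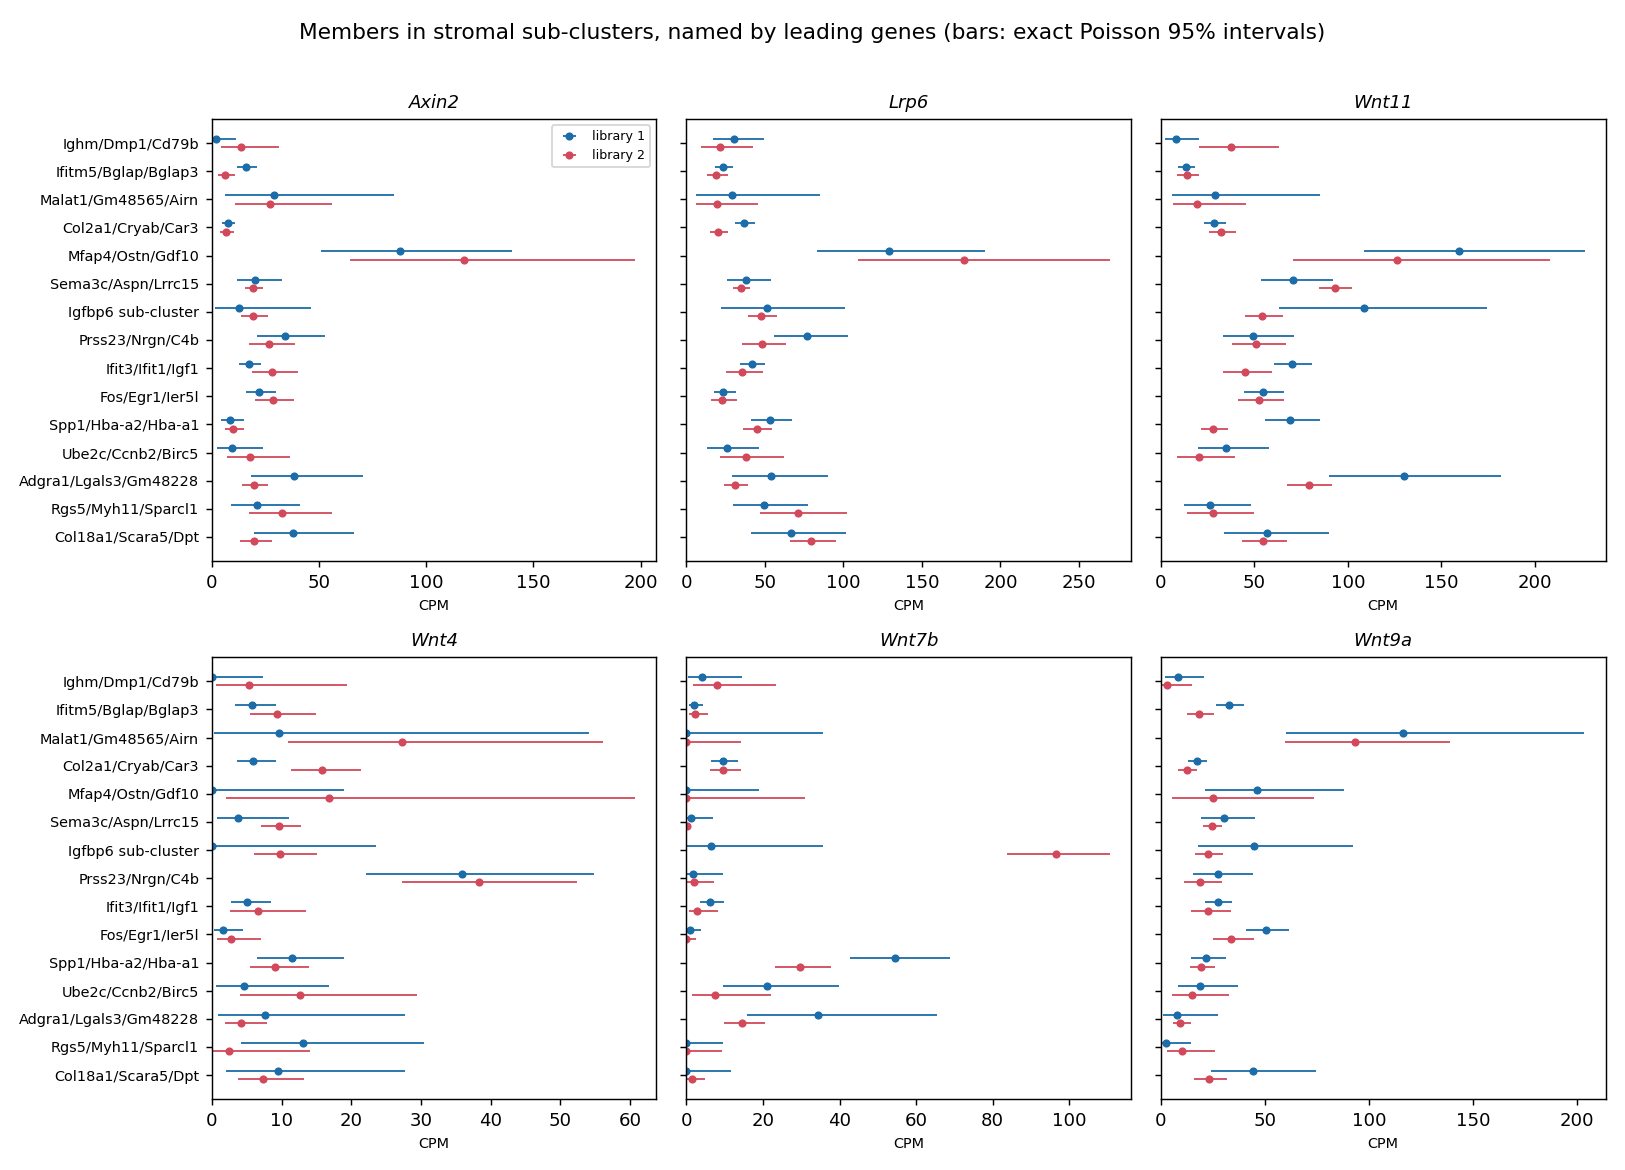
Level of 6 genes (CPM) in the stromal sub-clusters with at least 20 cells in each library, named by leading genes, with library 1 in blue, library 2 in red and exact Poisson 95% intervals as bars. Axin2 is highest in the Mfap4 sub-cluster, Wnt4 in the Prss23 one and Wnt9a in the Malat1 one, while Wnt7b in the Igfbp6 sub-cluster is high in library 2 only.

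Seen by class, the counts of Wnt genes above free RNA were highest in 4 stromal classes. Wnt1, Wnt4, Wnt5a, Wnt6, Wnt7b, Wnt9a, Fzd2, Fzd3 and Fzd9 reached 20 UMIs in stromal classes only. These counts were therefore partly fixed by the measuring limit. Of the 26 measured genes, 19 lay above the low-UMI barcodes in both libraries in the Spp1 cluster (17.8% of all measured genes did), 18 in ligament or fibroblast-like cells (20.9%), 15 in osteoblast-like cells (14.8%) and 15 in the Apod cluster (15.9%). Endothelial-like cells had 7 (21.7%): Tcf7l1, Tcf7l2, Lrp5, Lrp6, Fzd4, Fzd6 and Ctnnb1, and no ligand. Mature neutrophil-like cells had 0 (13.2%), and so did haematopoietic stem or progenitor-like cells (36.5%). A gene at the level of these barcodes in a class may still be expressed there.

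The Spp1 cluster and osteoblast-like cells thus shared many of the genes and differed in others. In both libraries, osteoblast-like cells alone of the pair exceeded free RNA for Wnt1 and Tcf7, and the Spp1 cluster alone for Fzd1, Fzd2, Fzd3, Wnt5b, Lrp6 and Tcf7l1. In library 1 alone, osteoblast-like Wnt5b also lay above the 11.0 CPM of the low-UMI barcodes, at 23.0 (19.6 to 26.8). The same held there for osteoblast-like Fzd3, at 7.06 against 4.72 CPM, and Tcf7l1, at 12.9 against 10.1. Wnt1 in the Spp1 cluster likewise exceeded these barcodes in library 1 alone. Each class was compared here with free RNA, and the difference between both classes was not tested.

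The libraries differed by at least 2-fold beyond counting error in 23 of 219 pairs of a Wnt gene and a class (10.5%, against 9.51% of all such pairs), a share near that of all genes. Fzd5 accounted for 4 of them. It was at 77.5 CPM (70.5 to 84.9) in library 1 and 37.4 (33.7 to 41.3) in library 2 in ligament or fibroblast-like cells, 81.3 and 33.0 in the Apod cluster, 68.3 and 23.3 in the Igfbp6 cluster, and 40.8 and 82.8 in osteoclast-like cells. Fzd2 in ligament or fibroblast-like cells was at 14.0 (11.1 to 17.4) and 6.04 (4.63 to 7.74). In osteoblast-like cells Wnt5b was at 23.0 (19.6 to 26.8) and 11.1 (8.45 to 14.3), and Wnt4 at 5.68 and 12.7. The Igfbp6 cluster gave 5 of the 23 pairs and erythroid-like cells 2, and in erythroid-like cells the median gene was shifted by 0.83 on the log2 scale towards library 1. Since neither library is assigned to a group, force, the pool of mice and the preparation cannot be told apart here.

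**Figure D5:**
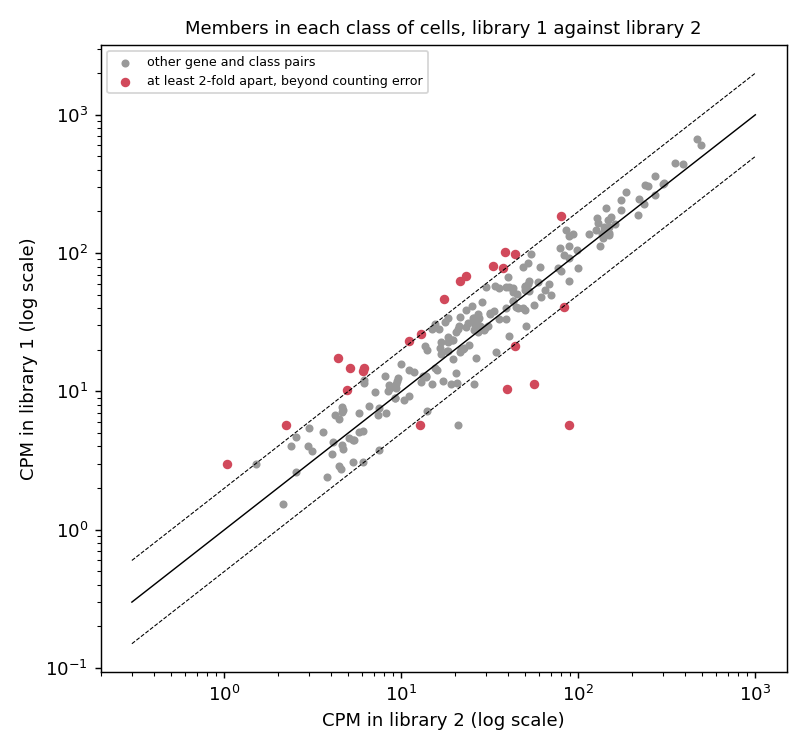
Level of each gene and class pair with at least 20 UMIs in some library, in library 1 (vertical axis) against library 2 (horizontal axis), both in CPM on log scales, with a solid line of equality and dashed lines at 2-fold. The 23 pairs at least 2-fold apart beyond counting error are red, and the pair farthest below the line is Wnt7b in the Igfbp6 cluster.

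Other genes of the pathway were read from 8 lists. All 8 measured genes of Wnt processing and release had a common highest class, and it was stromal for each, among them Wls, the carrier that brings Wnt proteins to the cell surface, at 337 and 372 CPM in ligament or fibroblast-like cells. The lead lay beyond counting error in both libraries for Wls, Notum, Trabd2b and Gpc1. For Porcn, Gpc3, Gpc4 and Gpc6 it did not. Of the other lists, 2 of 4 measured genes among the R-spondin receptors and the ligases they hold back had a common highest class, 2 of 6 other Wnt receptors, 6 of 10 cytoplasmic transducers, 4 of 8 planar cell polarity genes, 7 of 12 nuclear partners, 5 of 11 feedback and target genes and 7 of 11 secreted antagonists. Over all genes measured the share with a common highest class was 52.9%. That class was stromal for 2 of the 6 other receptors, 4 of 11 antagonists, 3 of 11 feedback and target genes, 2 of 10 transducers, 1 of 12 nuclear partners and none of the other two lists, against 8.1% of all genes. A lead of at least 2-fold in both libraries (11.1% of all genes) was found for Notum, Celsr1, Daam1 and 4 antagonists. These were 1 of 8 processing genes, 2 of 8 planar cell polarity genes and 4 of 11 antagonists. Notum was also the 1 such gene of the 11 feedback and target genes. The other lists had none. The share over all lists together was not taken, so no excess over all genes is claimed. Notum, an enzyme that strips the lipid from Wnt proteins, was at 32.9 and 29.7 CPM in the Apod cluster. Celsr1, a planar cell polarity cadherin, was at 164 and 135 in plasmacytoid dendritic-like cells, and Daam1, a formin that acts with Dishevelled, at 355 and 310 in megakaryocyte-like cells.

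The antagonists with such a lead were Sfrp2 in the Igfbp6 cluster, at 1707 and 434 CPM, Sfrp5 in Schwann-like cells, at 616 and 211, Frzb in the same cells, at 84.7 and 59.1, and Dkk1 in osteoblast-like cells, at 14.5 and 12.4. The lead of Frzb, from 11 and 14 UMIs, was not beyond counting error in both libraries. Schwann-like cells carried Fzd3 and Lrp6 beside Sfrp5 and Frzb, but they were only 41 and 57 cells.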

How the data were processed

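The deposited matrices hold raw counts of UMIs per feature and barcode, unfiltered, per the file headers. FastQC 0.11.9 and the builds GRCh38 and mm10 are named in the submitters' processing notes, with no role. Neither aligner nor annotation is stated there or in the labels. Features without a symbol (0.636% of library 1's UMIs, 0.459% of library 2's) were left out. Named genes had 77546284 and 116742643 UMIs.

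Cells needed 847 (library 1) or 1172 (library 2) UMIs, the inflection of the rank curve, at least 200 genes and at most 20% mitochondrial UMIs. Scrublet marked 9 and 185 cells. In library 1 that is 0.0921%, so the call had not worked, and the 5% with the highest scores (489 and 593 cells) were removed from both libraries. Doublets may remain. Both libraries were clustered together (scanpy 1.11.5, 2000 variable genes, 30 components, 15 neighbours, Leiden resolution 1.0) without the Wnt genes, the pathway lists, or mitochondrial, ribosomal and sex-linked genes. Of 27 clusters, 24 were named: at least 3 markers and 50% of a list raised at least 3-fold, no other list with more genes among the 10 leading ones, at least 2 markers among these or the whole list raised, and the list's first marker in at least 20% of the cells. The limits were set after the clusters were seen. All 24 classes had at least 20 cells in each library and were ranked.

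UMIs were summed by class as CPM. Levels under 0.5 UMIs were set to it for ratios, and counting error means 1.96 standard errors of the log2 ratio. The ranking was also run on simulated data. No outcome of that run is given here, and no place or lead above rests on it. Every gene found by the rule is named, and of the pathway lists those at least 2-fold above every other class. Trabd2a did not match a symbol. The genes and lists were chosen with earlier results of these data known. The alternatives concern resolution, class assignment, doublets, cell minimums, scaling, free RNA, the measuring limit and small classes.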

Additional observations from a re-analysis of the deposited data

How the results depend on the processing

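Under the 13 settings for places, Lef1, Tcf7, Fzd4 and Fzd6 kept their highest class in all 13, and Tcf7l2 in the 10 where its class was ranked. The 7 genes beyond counting error became 3 with cells assigned by marker lists, 4 with a mitochondrial share up to 5%, 3 with UMIs per cell and 12 when only classes with at least 100 cells were ranked. The 5 genes at least 2-fold above every other class became 3 with a UMI minimum of 2000. The 8 genes highest in a stromal class became 5 with a mitochondrial share up to 5% and 13 with classes of at least 100 cells, which leaves fewer classes to rank. Of the 7 leads beyond counting error, 3 turned: Fzd1 to -0.22 (10% doublets), -0.14 (mitochondrial share) and -0.14 (UMIs per cell) on the log2 scale, Fzd3 to -0.73 (UMIs per cell), and Fzd8 to -0.037 (without the 100 most abundant genes) and -0.47 (UMIs per cell). Of the leads within counting error, that of Fzd5 turned to -1.88 (UMIs per cell), -0.14 (mean CPM of each cell) and -0.037 (mitochondrial share) and that of Fzd7 to -0.12 (mean CPM). Those of Wnt1, Wnt10b and Lrp5 turned under 2, 3 and 5 of 13 settings, that of Wnt4 under 3 of 11 and that of Tcf7l1 under 4 of 12. The class in question was ranked in 9 settings for Fzd1 and Fzd7, 11 for Fzd5 and Fzd8 and 12 for Fzd3. The cause of these changes was not tested. Removing the small classes shortens the ranking, and whether this moved the counts was not tested either. Without the Igfbp6 cluster, an alternative added after seeing the data, 10 genes lay beyond counting error and 7 led by 2-fold. The share of all genes was not taken under any of these settings. Precision is lowest in Schwann-like cells, where 1 UMI is 7.70 and 4.22 CPM. Of the R-spondins and the 10 unmeasured ligands, Wnt10a, Wnt2b, Rspo1, Rspo2 and Rspo3 exceeded the low-UMI barcodes in some class in both libraries. The others did so in no class. Counts were small, and whether any of these genes is expressed was not tested beyond this comparison. No paired analysis was possible because the labels put neither library in a group.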
